A study of Mus musculus with 8 samples.

Results

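Tetrahydrobiopterin is a pterin cofactor made from GTP, and the genes described here are the 6 that make, recycle or restrain its production: Gch1, Pts, Spr, Qdpr, Pcbd1 and Gchfr. They were taken by symbol from a table of 21878 gene rows, where all 6 were found. Dorsal root ganglia, which hold the cell bodies of sensory neurons, were taken at the lumbar segments 4 and 5 from mice of the C57BL/6 strain, 3 days after surgery, and their RNA was sequenced from both ends. The table gives FPKM, a fragment number corrected for the length of the transcript and the size of the library. The 4 groups held 2 libraries each. The dKO SNI mice carried Advillin-Cre with loxP-flanked Myh9 and Myh10, the genes of the non-muscle myosin IIA and IIB heavy chains, and had their sciatic nerve cut; the sample names call this axotomy SNI. The dKO sham mice had the same genotype and sham surgery. The WT SNI and WT sham mice carried the same floxed alleles without Cre, with axotomy or sham surgery, so every group had both floxed genes. Cre from Advillin acts in sensory neurons, so by design the other cells of the ganglion would keep both myosin genes. Which cells lost them was not measured here. The labels used here give no ages, do not mention pooling and do not say that paired libraries are different animals, so the tests speak only of library-to-library spread, part or all of which may be technical.

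Synthesis runs in 3 steps. GTP cyclohydrolase 1 (Gch1) opens the guanine ring of GTP and sets the rate of the route, 6-pyruvoyltetrahydropterin synthase (Pts) makes the next intermediate, and sepiapterin reductase (Spr) completes the cofactor. Hydroxylases leave an oxidised pterin that pterin-4a-carbinolamine dehydratase (Pcbd1) and quinoid dihydropteridine reductase (Qdpr) return to tetrahydrobiopterin, while Gchfr encodes the protein through which the cofactor inhibits Gch1. The cofactor serves the aromatic amino acid hydroxylases, the nitric oxide synthases and the ether lipid enzyme Agmo. In rodent sensory ganglia, induction of Gch1 after nerve injury is known for its tie to neuropathic pain, and activated macrophages also make the cofactor.

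Facts of the libraries that touch every result were as follows. Within each surgery, both dKO libraries had less Myh9, Myh10 and Avil (Advillin) than both WT libraries. Myh9 measured 10.9 and 12.1 FPKM in dKO sham against 27.2 and 31.6 in WT sham. The gap was smaller in SNI libraries, with 24.6 and 24.4 FPKM in dKO against 30.8 and 29.7 in WT. In dKO SNI against WT SNI, Myh9 did not pass the test described below (limma, adjusted p 0.113). Myh10 (0.00929) and Avil (0.00427) passed there. The injury marker Atf3 measured 148 to 163 FPKM in dKO SNI against 9.07 to 10.0 in dKO sham. WT SNI libraries had 147 to 178 FPKM of Atf3, against 2.71 to 7.26 in WT sham. The sensory neuron marker Prph measured 406 and 299 FPKM in dKO SNI against 621 and 699 in dKO sham. For Prph, WT SNI libraries had 530 and 508 FPKM, against 695 and 693 in WT sham. The Y-linked genes Ddx3y, Eif2s3y, Kdm5d and Uty measured at least 2.10 FPKM in dKO SNI and WT sham and at most 0.0109 in dKO sham and WT SNI, so each comparison of 2 groups below also compares libraries with and without Y-linked transcripts, and these cannot be told apart; only contrasts averaged over both genotypes or both surgeries balance them. WT sham 2 held skeletal muscle transcripts, whose 6 markers summed to 407 FPKM there and to between 0.748 and 8.36 FPKM elsewhere. In bulk tissue, fewer cells of a type and less RNA per cell cannot be told apart.

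On the FPKM scale, which is per transcript length, Qdpr, Pts, Pcbd1 and Spr were well expressed and Gch1 and Gchfr were not. Over the 8 libraries Qdpr ranged between 34.6 and 61.2 FPKM, Pts between 21.7 and 56.6, Spr between 17.6 and 31.5 and Pcbd1 between 20.3 and 27.3. Gch1 ranged between 1.42 and 6.42 FPKM, which put its mean level at percentile 28.1 of the 12884 genes tested, and Gchfr between 0.251 and 1.47 FPKM, at percentile 1.92. Qdpr was the highest of the 6 in all 4 sham libraries and in both WT SNI libraries, and Pts was the highest in both dKO SNI libraries. The level of Pts divided by that of Qdpr was 1.05 and 1.64 in dKO SNI against 0.468 and 0.536 in dKO sham, and 0.729 and 0.692 in WT SNI against 0.354 and 0.417 in WT sham. The ranges of Spr and Pcbd1 overlapped in every group but dKO SNI, where their closest values were 20.0 and 20.3 FPKM, so the spread between libraries does not separate their order. Gch1 and then Gchfr were the lowest in all 8 libraries. A gene was tested where it reached 1 FPKM in at least 2 libraries, and all 6 passed; Gchfr did so through 3 libraries, 1 each of dKO SNI, dKO sham and WT SNI.

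**Figure D1:**
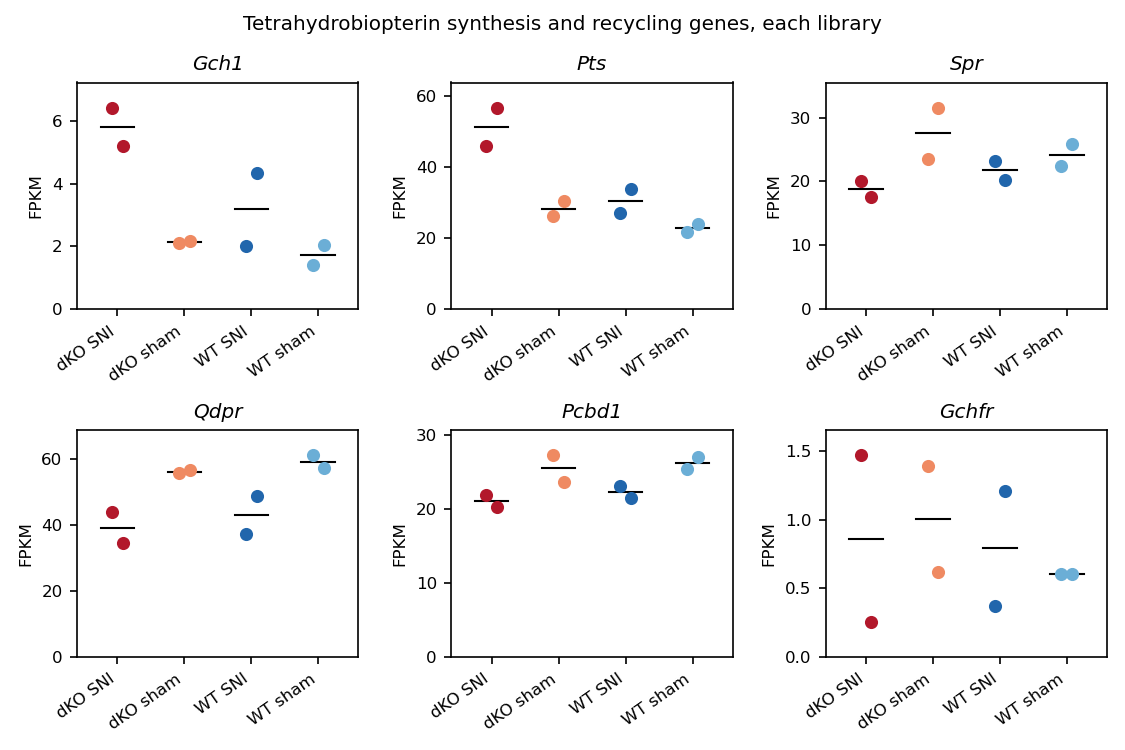
FPKM of the 6 tetrahydrobiopterin genes (vertical axes, each from 0) in the 4 groups; each point is 1 library and the bar is the mean of 2. Gch1 and Pts are highest in dKO SNI, Qdpr and Pcbd1 lie lower in all 4 SNI libraries than in all 4 sham libraries, and the 2 Gchfr libraries of a group lie far apart in 3 of 4 groups.

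Averaged over both genotypes, 4 SNI libraries against 4 sham libraries, Gch1 and Pts rose and Qdpr, Spr and Pcbd1 fell, while Gchfr did not pass the test. The test was limma on log2(FPKM + 1) over all 12884 genes with Benjamini-Hochberg adjustment and a threshold of 0.05; each change below is a difference on that scale with its standard error, and the scale understates the change of a gene as low as Gch1. In this averaged contrast 55.0% of all genes passed, 29.5% higher and 25.5% lower, so the count of 5 of 6 is read against a background in which most genes changed. The count was 3 to 4 with 1 library left out and 3 with quantile normalization, since the Spr call was held under 8 of 14 alternatives and the Pcbd1 call under 5 of 14. The median change of the 6 genes was -0.13, against 0.04 over all genes.

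Gch1, the rate-setting enzyme, measured 6.42 and 5.20 FPKM in dKO SNI, against 2.12 and 2.16 in dKO sham. After axotomy WT mice had 2.02 and 4.34 FPKM, against 1.42 and 2.03 in WT sham. Both dKO SNI libraries lay above every other library, and WT SNI 1 lay within the WT sham range. Over all genes, 37.7% lay higher without overlap in dKO SNI than in dKO sham, and 30.8% higher than in WT SNI. In dKO mice the means were 5.81 ± 0.857 FPKM after axotomy and 2.14 ± 0.0274 FPKM after sham surgery (SD, n = 2 each), a ratio of 2.72, and Gch1 rose by 1.11 ± 0.24 (limma, adjusted p 0.00508), with a call under all 14 alternatives that could test it (adjusted p 0.000845 to 0.0314). In WT mice the ratio of the means was 1.85 and the change of 0.57 ± 0.24 did not pass (adjusted p 0.119). The WT value rested on which SNI library was kept: without WT SNI 1 it was 0.98 and passed (adjusted p 0.0119), without WT SNI 2 it was 0.16 and did not (0.668), and its other alternatives lay between. Averaged over genotypes the change was 0.84 ± 0.17 (adjusted p 0.0029). It stood at percentile 91.6 of the changes of all genes tested.

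Pts, the enzyme of the next step, measured 46.0 and 56.6 FPKM in dKO SNI, against 26.0 and 30.4 in dKO sham. In WT mice the SNI libraries held 27.1 and 33.9 FPKM, against 21.7 and 23.9 in WT sham. The SNI libraries lay above the sham libraries of the same genotype in both cases, which over all genes happened in the same direction for 37.7% in dKO and 39.8% in WT. Pts rose by 0.84 ± 0.16 in dKO mice (limma, adjusted p 0.00275; called under all 15 alternatives), and its change of 0.40 ± 0.16 in WT mice did not pass (adjusted p 0.105). The averaged change was 0.62 ± 0.11 (adjusted p 0.00169).

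The promoters of Gch1 and Pts are shown because these 2 genes rose together, and that of Qdpr because it fell most steadily. Each line holds the 250 bases before and the first 50 bases of the RefSeq transcript start in the mouse assembly GRCm38.p6, on the gene's own strand; all 6 genes had an entry. Capitals mark matches on either strand. The cAMP response element was searched as TGACGTCA. The AP-1 site was searched as TGANTCA. For the CCAAT box the letters were CCAAT. For the GC box they were GGGCGG. The TATA box was searched as TATAAA. A string close to the cAMP response element, TGACGCAA, was added after the Gch1 window had been read. Its match there was therefore known beforehand and cannot be weighed against its share of all windows.
Gch1 (chr14:47189364-47189663, minus strand): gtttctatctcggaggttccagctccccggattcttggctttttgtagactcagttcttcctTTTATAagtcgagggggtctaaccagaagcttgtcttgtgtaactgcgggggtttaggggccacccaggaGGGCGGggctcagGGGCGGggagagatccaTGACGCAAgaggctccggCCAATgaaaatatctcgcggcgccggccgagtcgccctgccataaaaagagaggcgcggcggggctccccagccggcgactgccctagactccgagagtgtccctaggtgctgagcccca
Pts (chr9:50528607-50528906, minus strand): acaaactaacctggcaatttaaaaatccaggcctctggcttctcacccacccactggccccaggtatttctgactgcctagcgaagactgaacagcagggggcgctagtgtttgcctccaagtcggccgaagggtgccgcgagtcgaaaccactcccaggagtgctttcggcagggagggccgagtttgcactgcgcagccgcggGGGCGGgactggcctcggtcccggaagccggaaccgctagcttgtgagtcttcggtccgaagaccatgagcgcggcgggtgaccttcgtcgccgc
Qdpr (chr5:45450180-45450479, minus strand): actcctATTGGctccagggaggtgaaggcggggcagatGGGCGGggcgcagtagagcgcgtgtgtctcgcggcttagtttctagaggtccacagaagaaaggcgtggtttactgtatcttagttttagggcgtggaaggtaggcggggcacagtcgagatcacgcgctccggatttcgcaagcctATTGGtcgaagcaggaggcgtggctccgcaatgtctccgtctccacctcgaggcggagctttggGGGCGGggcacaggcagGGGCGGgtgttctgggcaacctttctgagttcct
The Gch1 window holds GC boxes starting 118 and 105 bases before the start, TGACGCAA at 88 and a CCAAT box at 70, in that order on the gene's strand, and a TATA-box string on the opposite strand at 188. The Pts window holds 1 GC box, at 45 bases, and none of the other strings. The Qdpr window holds 3 GC boxes and 2 CCAAT boxes on the opposite strand, at 244 and 65 bases. No match overlapped another in these 3 windows, and none of the 6 promoters held TGACGTCA or TGANTCA. Of 32851 promoter windows of this length in the table, 1.79% held TGACGTCA, 7.81% TGANTCA, 37.4% CCAAT, 35.7% GGGCGG, 13.6% TATAAA and 0.49% TGACGCAA. All 6 members held GGGCGG, and their windows had 55.3 to 67.0% G and C, against a median of 52.7% over all windows. These are matches of letters and were not tested as sites.

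In GRCm38, Gch1 spans chr14:47153895-47189413, and 2 processed pseudogenes lie within that span without touching its exons. Pts spans chr9:50521617-50528724, Spr chr6:85130176-85137766 and Qdpr chr5:45434021-45450236, all transcribed from the minus strand like Gch1. Pcbd1 spans chr10:61089331-61094324 and Gchfr chr2:119167773-119172390, both plus-strand genes. All 6 are annotated as protein-coding. The antisense gene Gm42413 overlaps exons of Qdpr, and the labels do not say whether strand was kept, so its reads cannot be told apart from those of Qdpr. A pseudogene, Spr-ps1, lies on the same chromosome as Spr, and how shared reads were assigned is not given, which makes the Spr values uncertain to that extent.

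Qdpr, the reductase that regenerates the cofactor, measured 43.8 and 34.6 FPKM in dKO SNI, against 55.7 and 56.7 in dKO sham. Levels in WT SNI were 37.2 and 48.9 FPKM, against 61.2 and 57.2 in WT sham. All 4 SNI libraries lay below all 4 sham libraries, an order that 17.3% of all genes shared in that direction; within WT alone 29.2% lay lower without overlap. Qdpr fell by 0.49 ± 0.12 averaged over genotypes (limma, adjusted p 0.00673), with a call under all 14 alternatives. Within dKO mice it fell by 0.52 ± 0.17 (adjusted p 0.0293), a call lost without dKO sham 1 (0.0885), dKO sham 2 (0.0944) or dKO SNI 2 (0.186), over a range of 0.0184 to 0.186. Within WT mice the change of -0.46 ± 0.17 did not pass (adjusted p 0.0747), and passed only with the libraries centred on their medians (0.045).

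Spr, which completes the cofactor, measured 20.0 and 17.6 FPKM in dKO SNI, against 23.6 and 31.5 in dKO sham. WT SNI libraries had 23.1 and 20.3 FPKM, against 22.4 and 25.8 in WT sham. The dKO groups do not overlap, as for 37.8% of all genes in that direction, and the WT groups do. Spr fell by 0.52 ± 0.16 in dKO mice (limma, adjusted p 0.0269), a value set in part by 1 library: without dKO sham 2 it was -0.31 (adjusted p 0.167), and without dKO SNI 2 it was -0.43 (0.141). In WT mice the change was -0.14 ± 0.16 (adjusted p 0.554), and averaged over genotypes it was -0.33 ± 0.12 (0.0361, and 0.0133 to 0.13 over its alternatives).

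Pcbd1, the dehydratase of the recycling arm, varied least, with a highest value 1.34 times its lowest. It measured 21.9 and 20.3 FPKM in dKO SNI against 27.3 and 23.7 in dKO sham. After axotomy WT mice had 23.2 and 21.5 FPKM, against 25.5 and 27.1 in WT sham. All 4 SNI libraries again lay below all 4 sham libraries, as for 17.3% of all genes. The averaged change of -0.24 ± 0.09 passed narrowly (limma, adjusted p 0.0448) and had an adjusted p of 0.032 to 0.154 over its alternatives; within dKO mice (-0.26 ± 0.13, adjusted p 0.123) and within WT mice (-0.23 ± 0.13, adjusted p 0.22) it did not pass.

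Gchfr, the feedback protein of Gch1, was too low and too uneven to read. It measured 1.47 and 0.251 FPKM in dKO SNI against 1.39 and 0.622 in dKO sham. In WT mice the SNI libraries held 0.370 and 1.21 FPKM, against 0.601 and 0.604 in WT sham. The averaged injury change was -0.02, with a 95% interval between -0.55 and 0.51, so changes of the size seen for Qdpr are within what these libraries allow.

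**Figure D2:**
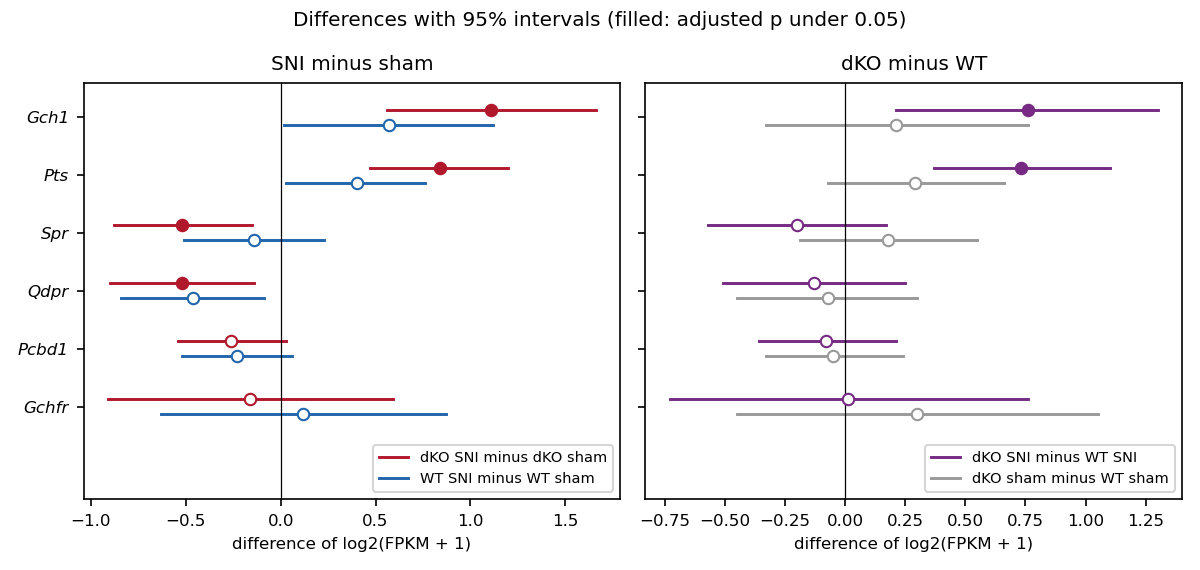
Differences of log2(FPKM + 1) for the 6 genes with 95% intervals from limma: SNI minus sham in each genotype (left) and dKO minus WT after each surgery (right); filled points passed an adjusted p of 0.05. Gch1 and Pts pass in dKO SNI against both dKO sham and WT SNI, and no gene passes in WT SNI against WT sham or in dKO sham against WT sham.

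Within each genotype taken alone, 4 of the 6 genes passed in dKO SNI against dKO sham. Gch1 and Pts were higher and Spr and Qdpr lower, where 48.4% of all genes passed, 23.8% higher and 24.6% lower. In WT SNI against WT sham none passed the adjusted test, where 23.0% of all genes passed, 13.6% higher and 9.38% lower. At an unadjusted p under 0.05 in limma, 3 of the 6 genes (Gch1, Pts and Qdpr) and 4892 of the 12884 genes passed there. Both contrasts also compare libraries with and without Y-linked transcripts. The difference between the 2 responses was tested directly and did not pass for any of the 6: it was 0.54 ± 0.34 for Gch1 (limma, adjusted p 0.471), 0.44 ± 0.23 for Pts (0.39) and -0.37 ± 0.23 for Spr (0.459), in a contrast that divides the libraries as the Y-linked genes do and in which 0.0543% of all genes passed. With 1 library left out the difference ran between 0.13 (without WT SNI 1) and 0.95 (without WT SNI 2) for Gch1, between 0.28 (without WT SNI 1) and 0.59 (without WT SNI 2 or dKO SNI 1) for Pts and between -0.58 (without dKO sham 1) and -0.17 (without dKO sham 2) for Spr, and passed in none of these fits.

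Between genotypes, Gch1 and Pts were higher in dKO SNI than in WT SNI, groups that also differ in Y-linked transcripts. In dKO SNI against WT SNI, Pts was higher by 0.73 ± 0.16 (limma, adjusted p 0.0158; ratio of means 1.68), and Gch1 by 0.76 ± 0.24 (adjusted p 0.0498; ratio of means 1.83). These 2 of 6 genes passed, against 24.1% of all genes, 10.7% higher and 13.4% lower. Neither gene overlapped between these groups, as for 30.8% of all genes that were higher and 37.4% that were lower in dKO SNI. The Gch1 call was held under 4 of 14 alternatives (adjusted p 0.013 to 0.31, its change being 0.34 without WT SNI 1), and the Pts call was lost without WT SNI 1 (0.122) or dKO SNI 2 (0.115), over a range of 0.00874 to 0.122. After sham surgery none of the 6 passed, at either the adjusted or the unadjusted threshold, where 0.155% of all genes passed the adjusted one and 1397 the unadjusted one. The difference for Gch1, dKO sham minus WT sham, was 0.21, with a 95% interval between -0.33 and 0.76, and for Pts 0.29, between -0.07 and 0.66. Gch1, Pts and Gchfr lay above both WT sham libraries in both dKO sham libraries, as 27.8% of all genes did, and Qdpr lay below, as 18.3% did. Averaged over both surgeries Pts was 0.51 ± 0.11 higher in dKO (adjusted p 0.0188), where 22.2% of all genes passed, 11.8% higher and 10.4% lower, and it kept this call under 9 of 14 alternatives; the Gch1 difference of 0.49 ± 0.17 did not pass (0.0687), but was 0.69 and passed without WT SNI 2 (0.0124), and was 0.28 without WT SNI 1 (0.182).

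Enzymes that use the cofactor did not move one way. Of 8 listed, 4 were expressed enough to test: Th, Nos1, Nos3 and Agmo. Among those too low to test, Tph2 stayed at or below 0.575 FPKM, Tph1 at or below 0.130 FPKM and Nos2 at or below 0.0380 FPKM in every library. After axotomy 2 of the 4 fell and 1 rose in each genotype, where 24.6% of all genes fell and 23.8% rose in dKO mice and 9.38% fell and 13.6% rose in WT mice. The falls counted in WT mice were held under 6 of 15 alternatives for Th and 4 of 14 for Nos1.

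Th, tyrosine hydroxylase, which in mouse ganglia marks low-threshold C-fibre mechanoreceptors, measured 12.6 and 3.73 FPKM in dKO SNI against 34.0 and 29.4 in dKO sham. Levels in WT SNI were 17.5 and 14.3 FPKM, against 51.1 and 31.5 in WT sham. The groups do not overlap in either genotype, as for 37.8% of all genes in this direction in dKO and 29.2% in WT. Th fell by 2.02 ± 0.41 in dKO mice (limma, adjusted p 0.00344), a call held under all 15 alternatives with a size set by the SNI library kept: the change was -2.79 without dKO SNI 1 and -1.26 without dKO SNI 2. In WT mice it fell by 1.29 ± 0.41 (0.0487, and 0.00518 to 0.216 over its alternatives).

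Nos1, the neuronal nitric oxide synthase, measured 1.50 and 1.12 FPKM in dKO SNI against 5.09 and 4.44 in dKO sham. WT SNI libraries had 4.02 and 2.23 FPKM, against 4.73 and 6.50 in WT sham; the higher of the WT sham values is from the library with muscle transcripts, and muscle also expresses Nos1. It fell by 1.32 ± 0.22 in dKO mice (limma, adjusted p 0.00126). The WT fall of 0.70 ± 0.22 (0.046) was -0.51 without WT sham 2 (adjusted p 0.274) and -0.38 without WT SNI 2 (0.3), with 0.013 to 0.3 over its alternatives. The difference of Nos1 between dKO SNI and WT SNI was -0.81 ± 0.22 (limma, adjusted p 0.029), a call held under 11 of 14 alternatives. The call was lost without the filter on low values (adjusted p 0.0761). It was also lost without WT SNI 1, where the difference was -0.49, and without dKO SNI 2, where it was -0.69.

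Agmo, which cleaves ether lipids, measured 4.62 and 5.18 FPKM in dKO SNI against 2.26 and 2.14 in dKO sham. After axotomy WT mice had 3.03 and 4.05 FPKM, against 1.81 and 2.05 in WT sham. All 4 SNI libraries lay above all 4 sham libraries, as for 17.4% of all genes. Agmo rose by 0.88 ± 0.15 in dKO mice (limma, adjusted p 0.0013) and by 0.62 ± 0.15 in WT mice (0.0158); the WT call was lost without WT sham 1 (0.0954), WT sham 2 (0.0645) or WT SNI 2 (0.123). Nos3, the endothelial synthase, lay between 0.569 and 1.37 FPKM and passed in no comparison.

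**Figure D3:**
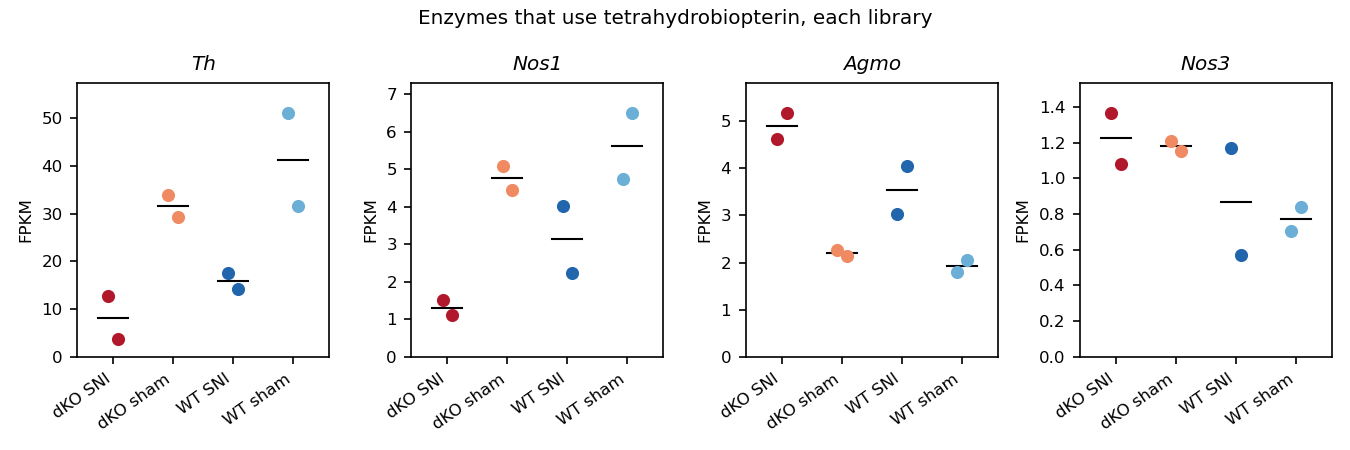
FPKM of the 4 tested enzymes that use tetrahydrobiopterin (vertical axes, each from 0) in the 4 groups; each point is 1 library and the bar is the mean of 2. Th and Nos1 are lowest and Agmo highest in dKO SNI, and Nos3 overlaps between SNI and sham.

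Of 5 reductases and dehydratases that salvage the cofactor or bypass part of its synthesis, 2 rose in dKO SNI against dKO sham, where 48.4% of all genes passed, and none passed in WT SNI against WT sham, where 23.0% did. Pcbd2, a paralog of Pcbd1, measured 7.85 and 9.34 FPKM in dKO SNI against 5.13 and 3.82 in dKO sham. In WT mice the SNI libraries held 3.61 and 4.42 FPKM, against 7.43 and 4.67 in WT sham. It rose by 0.81 ± 0.21 in dKO mice (limma, adjusted p 0.0101) and was 0.94 ± 0.21 higher in dKO SNI than in WT SNI (0.0157). The first of these calls was lost without dKO sham 2 (0.0694) or dKO SNI 2 (0.072), and the other without WT SNI 1 (0.112) or dKO SNI 2 (0.115). The carbonyl reductase Cbr3 rose by 0.61 ± 0.20 in dKO mice (adjusted p 0.0308; held under 11 of 15 alternatives, 0.0224 to 0.194), and the aldose reductase Akr1b3 was 0.52 ± 0.15 higher in dKO SNI than in WT SNI (0.0349; 9 of 15, 0.0158 to 0.173). Another carbonyl reductase, Cbr1, passed only in averaged injury, by 0.29 ± 0.10 (adjusted p 0.0276; held under 8 of 14 alternatives, 0.0129 to 0.0908). The amine-route genes Ddc and Dbh were too low to test, and the hydroxylase co-chaperone Dnajc12 passed in no comparison.

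Markers of some other cells of the ganglion moved with the same comparisons. Beside the counts below, 23.8% of all genes rose and 24.6% fell after axotomy in dKO mice. In WT mice 13.6% of all genes rose and 9.38% fell. All 10 macrophage markers rose in both genotypes, and their summed level was 613 and 741 FPKM in dKO SNI against 68.2 and 97.3 in dKO sham. Levels in WT SNI were 389 and 384 FPKM, against 59.7 and 40.9 in WT sham. Of 8 neutrophil and precursor markers all rose in dKO mice and 6 in WT mice. Their sum was 5815 and 5735 FPKM in dKO SNI against 521 and 910 in dKO sham. WT SNI libraries had 966 and 1927 FPKM, against 541 and 744 in WT sham. S100a8 and S100a9 made up most of this sum, at 2742 and 2439 FPKM in dKO SNI 1. No macrophage or neutrophil marker was at 0 in any library. Between dKO SNI and WT SNI, 5 of the 10 and all 8 were higher in dKO SNI, as were 10.7% of all genes. Within WT SNI, replicate 2 was the higher library for Gch1, for Pts and for the neutrophil, fibroblast and erythrocyte sums. The macrophage sums of the 2 libraries were close. C1qa, C1qb and C1qc made up most of the macrophage sum, at 109, 104 and 89.3 FPKM in WT SNI 1. Taken singly, Csf1r, Adgre1, Aif1, Cx3cr1, Mrc1, Cd163 and C1qc were higher in WT SNI 2, and Cd68, C1qa and C1qb were lower. Of 8 neuronal markers 5 fell in dKO mice and 4 in WT mice; their sum was 4077 and 3014 FPKM in dKO SNI against 4452 and 4835 in dKO sham. After axotomy WT mice had 6035 and 4977 FPKM, against 4884 and 4977 in WT sham. Tubb3, Uchl1 and Stmn2 made up most of this neuronal sum, at 2085, 1722 and 1461 FPKM in WT SNI 1. In WT mice the changes of Tubb3 (0.45) and Stmn2 (0.57) were positive but did not pass, while the 4 markers that passed fell. Of 6 fibroblast markers 4 rose in dKO mice and all 6 in WT mice, and their sum was 542 FPKM in WT SNI 1 and 829 in WT SNI 2. The 5 erythrocyte markers passed in neither genotype and varied widely, with sums of 7735 and 3114 FPKM in dKO SNI against 2041 and 5258 in dKO sham, while WT SNI had 1989 and 5190 against 1375 and 1296 in WT sham. Of 6 myelinating Schwann cell markers 0 passed in dKO mice and 1 rose in WT mice. Of 6 satellite glia markers 2 rose and 1 fell in dKO mice, and 1 rose in WT mice. Of 6 endothelial markers 4 rose in dKO mice and 2 in WT mice. The 5 T cell markers found summed to at most 1.64 FPKM and none was tested. The part of any of these cells in the changes of the 6 genes was not tested.

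**Figure D4:**
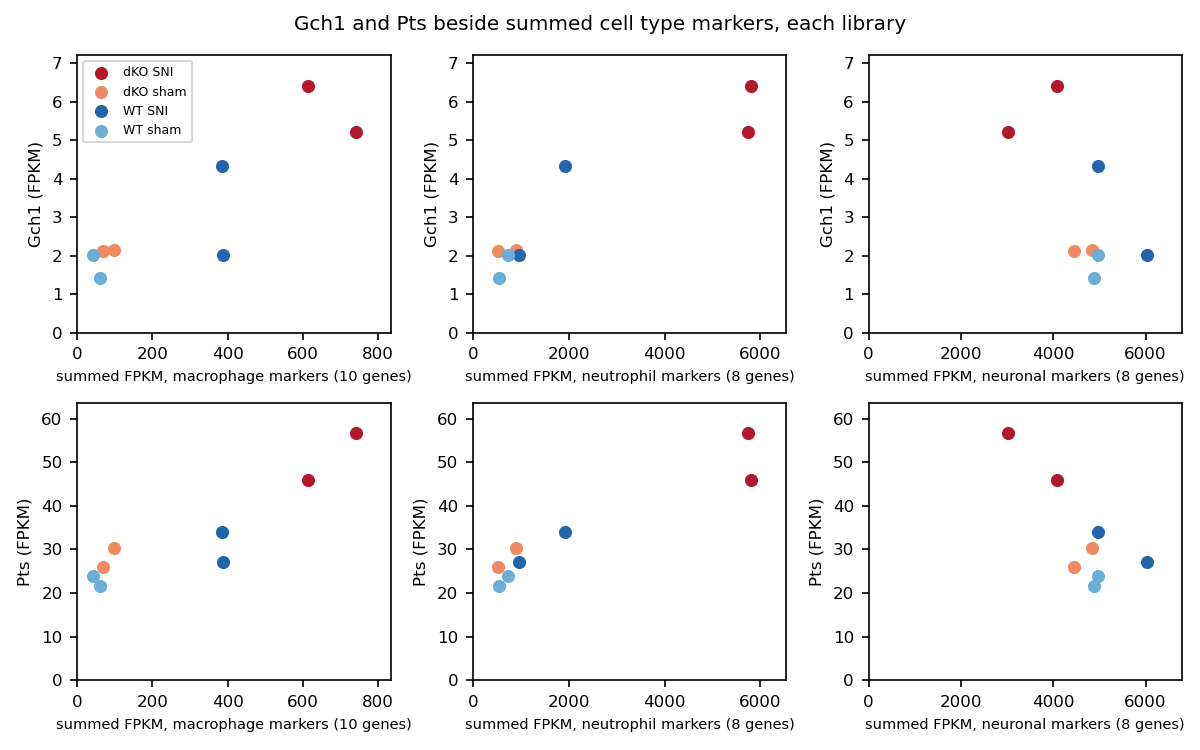
Gch1 (top row) and Pts (bottom row) in FPKM against the summed FPKM of macrophage, neutrophil and neuronal markers, 1 point per library, all axes from 0. The 2 dKO SNI libraries stand at the highest macrophage and neutrophil sums. The macrophage sums of WT SNI 1 and WT SNI 2 are close, while single macrophage markers differ between these libraries in both directions. The macrophage, neutrophil and neuronal sums are each set mostly by a few abundant markers.

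The genes whose pattern over the 8 libraries was most like that of each member were ranked by Pearson r of log2(FPKM + 1), leaving out predicted genes; libraries of a group share their condition, so r is only a measure of likeness. For Gch1 they were Ccdc88c and Hsd11b1 (r = 0.989 each), the kinetochore gene Cenpf (0.985), the leukocyte integrin Itgal (0.983) and the RNA helicase Ddx39 (0.982). Hsd11b1, which regenerates active glucocorticoid, averaged 5.64 FPKM in dKO SNI against 0.959 in dKO sham; in WT SNI its mean was 2.09 against 0.871 in WT sham. For Pts they were Ifit1bl2 and the mitochondrial ribosomal gene Mrpl33 (0.996 each) and Dennd1c (0.993). Some of these genes were low outside dKO SNI. Ccdc88c averaged 1.86 FPKM there and at most 0.846 in another group, Cenpf 1.15 and 0.571, and Dennd1c 1.83 and 0.797. They may have passed the filter of 1 FPKM in 2 libraries only through dKO SNI, where Gch1 and Pts are also highest. For Qdpr they were Cdk7 (0.984), Adora2a (0.978) and Chp2 (0.974), for Pcbd1 Syne1 (0.989), Usp25 and Tbl1x (0.980 each), and for Spr Mrps18a (0.979), Csnk1g2 (0.977) and Slc35c2 (0.976). For the low and uneven Gchfr they were Rpp40 (0.966), Zbtb8a (0.946) and Tspan14 (0.903).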

How the data were processed

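Libraries were TruSeq RNA, sequenced from both ends, per the labels' protocols. The builds GRCm38.p4 and mm10 and the tools StringTie 1.3.0, HISAT2 2.0.4 and edgeR stand in the submitters' processing notes without role or order; no source used here names the annotation. FPKM values came as 1 table deposited by the authors, with 8 columns matched to samples by the column name in each description. FPKM divides by library total and transcript length, so abundant transcripts lower all others. Total FPKM was 278310 to 339920 per library. Read totals are unknown, so counting error is unknown; among genes under 0.15 FPKM, the most common ratio of a library to WT sham 1 was 0.99 to 1.09.

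The 12884 genes that reached 1 FPKM in 2 or more libraries were tested on log2(FPKM + 1) with limma 3.58.1 in R 4.3.3, with 1 mean per group over all 8 libraries, a mean-variance trend and 4 residual degrees of freedom; p-values were two-sided, adjusted over these genes by Benjamini-Hochberg. Averaged contrasts came from the same fit. The fit was tested on simulated data. Coordinates are from GENCODE M21 (GRCm38) and promoters from RefSeq (GRCm38.p6). Replicate libraries correlated at 0.984 to 0.989 over genes. The named genes are the 6 members, the enzymes that use the cofactor, genes of the other pathway lists called in a comparison, and the nearest 5 genes to Gch1 and 3 to each other member by r; Ddc, Dbh, Dnajc12, Prph and the Y-linked genes were chosen after their values were seen. The members, lists and tests were chosen with earlier results of these data known. Some genes of the lists are not reported here.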

Additional observations from a re-analysis of the deposited data

Results flagged for a closer look

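Pcbd2, the paralog of Pcbd1, had changes of opposite sign after axotomy in the 2 genotypes, with no overlap between SNI and sham libraries in either, as for 37.7% of all genes that were higher in dKO and 29.2% that were lower in WT. Pcbd2 was flagged by a rule that looks for this pattern, and the share of all genes with both orders at once was not counted. Its change was 0.81 in dKO SNI against dKO sham and -0.47 in WT SNI against WT sham. The WT value missed the threshold (adjusted p 0.128 by limma). With 1 library left out it ran between -0.75 and -0.18. The difference between these responses, 1.28 ± 0.29, did not pass either (adjusted p 0.209, and 0.103 to 0.514 over 14 alternatives), and it divides the libraries as the Y-linked genes do.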

How the results depend on the processing

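The 6 genes had 598 values under the alternatives; 558 kept their side of the threshold, 37 lost a call, 3 gained one and none that was called reversed. The number of the 6 genes called changed under these alternatives. With the libraries centred on their medians it was 1 in WT SNI vs WT sham, against 0. In dKO SNI vs WT SNI it was 1, against 2, with a pseudocount of 0.1 FPKM, without the filter on low values, with a mean of at least 5 FPKM (Gch1 and Gchfr then drop out of the genes tested) and with only the 4 libraries compared. With a mean of at least 5 FPKM it was also 3 in dKO SNI vs dKO sham, against 4. For averaged injury it was 3 with quantile normalization and 4 without the filter, with a mean of at least 5 FPKM and with the replicate number as a block, against 5. Leaving out 1 library at a time gave 2 to 4 in dKO SNI vs dKO sham, 0 to 1 in WT SNI vs WT sham, 0 to 2 in dKO SNI vs WT SNI, 3 to 4 for averaged injury and 0 to 2 for averaged genotype. Over all genes, leaving out 1 library gave 3887 to 6200 calls in dKO SNI vs dKO sham (6236 with all 8), 1101 to 3026 in WT SNI vs WT sham (2967), 10 to 3083 in dKO SNI vs WT SNI (3106), 11 to 31 in dKO sham vs WT sham (20), 5571 to 6817 for averaged injury (7092), 420 to 3159 for averaged genotype (2866) and 5 to 20 for the interaction (7). The lowest WT count was without WT sham 2, and the lowest averaged genotype count without WT SNI 1. In dKO SNI vs WT SNI the count was 10 without WT SNI 1 and 11 without dKO SNI 2. With a mean of at least 5 FPKM, so with fewer genes tested, the counts were 3880 in dKO SNI vs dKO sham, 1869 in WT SNI vs WT sham, 4337 for averaged injury and 3 for the interaction. Without the filter they were 6 in dKO sham vs WT sham, 1892 in dKO SNI vs WT SNI and 1142 for averaged genotype. In dKO sham vs WT sham the count was 55 with a pseudocount of 0.1 FPKM and 32 with only its 4 libraries. With the replicate number as a block it was 47 there and 12 for the interaction; same-numbered libraries shared only a number (correlations of their deviations of -0.188 to 0.254), and among the 6 genes the block ended only the averaged call of Pcbd1 (adjusted p 0.0619). The share of calls in WT SNI vs WT sham that were higher was 59.3%, or 45.9% with quantile normalization and 49.9% with median centring. The causes were not tested except where stated. With 2 libraries a group and unknown read totals, Gchfr had 95% intervals that spanned -0.55 to 0.51 for averaged injury and -0.91 to 0.59 in dKO SNI vs dKO sham, so changes within them were not detectable.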

Other observations

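Some genes that supply GTP, the substrate of Gch1, passed after axotomy, in both directions. Of 6 tested, 3 rose and 1 fell in dKO SNI against dKO sham, where 48.4% of all genes passed, and 1 rose in WT SNI against WT sham, where 23.0% passed. Nme2, a nucleoside diphosphate kinase that makes GTP from GDP, measured 95.7 and 128 FPKM in dKO SNI against 47.8 and 54.5 in dKO sham. WT SNI libraries had 73.6 and 80.9 FPKM, against 52.3 and 46.7 in WT sham. It rose by 1.10 ± 0.17 in dKO mice (limma, adjusted p 8.04e-04) and by 0.63 ± 0.17 in WT mice (0.0251; lost without WT sham 1, WT sham 2, WT SNI 1 or WT SNI 2, at 0.0503 to 0.168). Its close paralog Nme1 rose by 0.56 ± 0.17 in dKO mice (0.0195; lost without dKO sham 1 or dKO SNI 2, at 0.134 and 0.0955), and reads of such paralogs can be shared. The guanylate kinase Guk1 rose by 0.69 ± 0.15 in dKO mice (0.0053).

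Impdh1, an IMP dehydrogenase at the start of guanine nucleotide synthesis, went the other way. It measured 16.5 and 13.3 FPKM in dKO SNI against 34.6 and 41.4 in dKO sham. WT SNI libraries had 37.2 and 27.4 FPKM, against 41.1 and 49.8 in WT sham. It fell by 1.30 ± 0.19 in dKO mice (limma, adjusted p 6.05e-04; called under all 15 alternatives) and differed by -1.06 ± 0.19 between dKO SNI and WT SNI (0.0112; lost without WT SNI 1 at 0.0846 or dKO SNI 2 at 0.0779). Its WT injury change of -0.49 ± 0.19 did not pass (0.0855), and the difference between the responses did not pass (-0.81 ± 0.26, adjusted p 0.273).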
